A study of Mus musculus with 16 samples.

Results

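Lgr5-expressing cells of the mouse duodenum were compared between vertical sleeve gastrectomy (VSG), which removes most of the stomach along its greater curvature, and a sham operation. The duodenal RNA-Seq libraries were 6 of the 16 in the series, 4 from VSG mice and 2 from sham mice, each from 1 of 6 mice out of 7 in all. Every gene with a mean normalized count above 10 over these 6 libraries was used, which was 16867 of the 48440 genes listed. All mice were obese female Lgr5EGFP mice, which carry EGFP in the Lgr5 gene, and all had received a 60% high-fat diet for 16 weeks before surgery. VSG and sham mice alike were fasted overnight 4 weeks after surgery and given a liquid meal 15 minutes before the tissue was taken. Cells came from a 6 cm length of duodenum, those positive for CD45, CD31, annexin V or Sytox Blue were removed, and GFP-positive cells were sorted. A library is therefore a bulk sample of all GFP-positive cells of 1 mouse, and with 2 sham libraries the sham spread rests on a single difference. The authors had excluded a further duodenal sham sample because of a low mapping percentage.

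Lgr5 marks the crypt base columnar stem cells, which divide to renew the intestinal lining, and GFP lasts into their recent daughters, so a GFP sort also holds cells that have begun to differentiate. Absorptive daughters become enterocytes, which digest and take up sugars, peptides, fats and minerals at the brush border and detoxify foreign compounds in the first tissue these meet. Secretory daughters become goblet, Paneth, enteroendocrine and tuft cells. Tuft cells are chemosensory, read the lumen through a taste-like pathway ending in the channel Trpm5, and release interleukin 25, acetylcholine and lipid mediators. In bulk samples fewer cells of a type cannot be told apart from less RNA per cell.

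The stem cell label was checked first. Lgr5 itself had 6565, 2638, 2169 and 892 normalized counts in the 4 VSG libraries, in the order of their replicate numbers as throughout, and 1082 and 884 in the sham libraries. VSG replicate 1 was the highest, and replicate 4 lay between the sham libraries. Olfm4, an abundant secreted protein of crypt base cells, ranged from 37596 to 79817 after VSG and was 52605 and 54348 after sham. Mki67, a protein of dividing cells, ranged from 9121 to 15475 after VSG and was 8666 and 11529 after sham. The groups overlapped for these 3 genes. All 20 genes of a stem cell list were above the filter, 16 higher and 4 lower in the VSG group. Their median log2 fold change was 0.27, where each log2 fold change is VSG minus sham on log2(normalized count + 1), and it was 0.094 without VSG replicate 1 and 0.10 without sham replicate 1. Prom1, a membrane protein of crypt base cells, was 12442 to 19712 after VSG and 7951 and 5964 after sham. Msi1, an RNA-binding protein of stem cells, was 2320.4 to 2699.6 after VSG and 1319 and 713 after sham. The groups were apart for both, with log2 fold changes of 1.20 ± 0.26 (SE) and 1.33 ± 0.32. Neither passed correction (limma, adjusted p = 0.373 and 0.45).

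The libraries held 46.9 to 51.7 M (mega) normalized counts, from an implied 33.7 to 63.6 M reads. For this the most frequent positive value of each library was assumed to be 1 read. One read was worth 0.737 to 1.41 normalized counts, and 3 reads, the level below which a value is not distinct from none, were worth 2.21 to 4.22. Of all tested genes 50.7% were higher after VSG and the median log2 fold change was 0.00856. Genes were called where the mean was above 50, the log2 fold change was over 0.5 in size, and the limma p was under 0.05 before and under 0.2 after adjustment. This gave 4 genes, all lower, which is 0.0237% of the genes tested. Because so few passed, the gene lists are described by how many members had an unadjusted limma p under 0.05, which among all tested genes was 2.79% higher and 3.48% lower. They are also described by how many members had no overlap between VSG and sham libraries, which among all tested genes was 6.44% higher and 8.01% lower. An exact permutation test of 1 gene over the 15 ways to split 4 against 2 cannot give a p below 0.0667, so no single gene could pass 0.05 by it.

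The called genes were Akp3, Aldh1a1, Abcc2 and 5031439G07Rik, each with a limma adjusted p of 0.196. Akp3 (chromosome 1, 87124973 to 87127912, plus strand, GRCm38), an intestinal alkaline phosphatase of the brush border, had 6064, 3280.1, 7279 and 3816 normalized counts after VSG and 30914 and 29644 after sham. Aldh1a1 (chromosome 19, 20492715 to 20643465, plus strand), which oxidizes retinal to retinoic acid, had 1895, 2116, 4281 and 1926 after VSG and 14221 and 12507 after sham. For both genes the highest VSG library stayed below the lower sham library, and the sham mean was 5.93 and 5.23 times the VSG mean. Abcc2 (chromosome 19, 43782192 to 43840740, plus strand), an apical pump that exports conjugated compounds and bile pigments, had 4093, 6334, 4793 and 4459 after VSG and 20885 and 14779 after sham. The gene 5031439G07Rik (chromosome 15, 84943936 to 84988551, minus strand) had 588, 1339.9, 814 and 726 after VSG and 5837 and 4994 after sham. The log2 fold changes were −2.64 ± 0.33 for Akp3, −2.48 ± 0.35 for Aldh1a1, −1.86 ± 0.25 for Abcc2 and −2.71 ± 0.38 for 5031439G07Rik. The calls lie just under the threshold, and leaving out 1 VSG library gave between 0 and 47 called genes. The number was 47 without VSG replicate 1, 0 without VSG replicate 2, 1 without VSG replicate 3 and 0 without VSG replicate 4. With a sham library left out only 1 remains, so the sham spread is not measured. Counts at a p threshold from such fits, given below, are not comparable with the other counts.

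Genes of enterocyte metabolism were mostly lower after VSG. In 18 lists, 323 of 331 genes were above the filter, and 246 were lower and 77 higher, with a median log2 fold change of −0.26. At an unadjusted p under 0.05, 52 were lower (16.1%) and 3 higher (0.929%), and 83 were lower without overlap (25.7%). The count of 52 was 16 without sham replicate 1 and 32 without sham replicate 2, while the median over these genes stayed between −0.30 and −0.19 whichever library was left out. The count was 23 by limma without a trend and 13 with a replicate block. This block matches same-numbered VSG and sham libraries, although they come from different mice. VSG libraries without a same-numbered sham library do not enter its estimate.

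**Figure D1:**
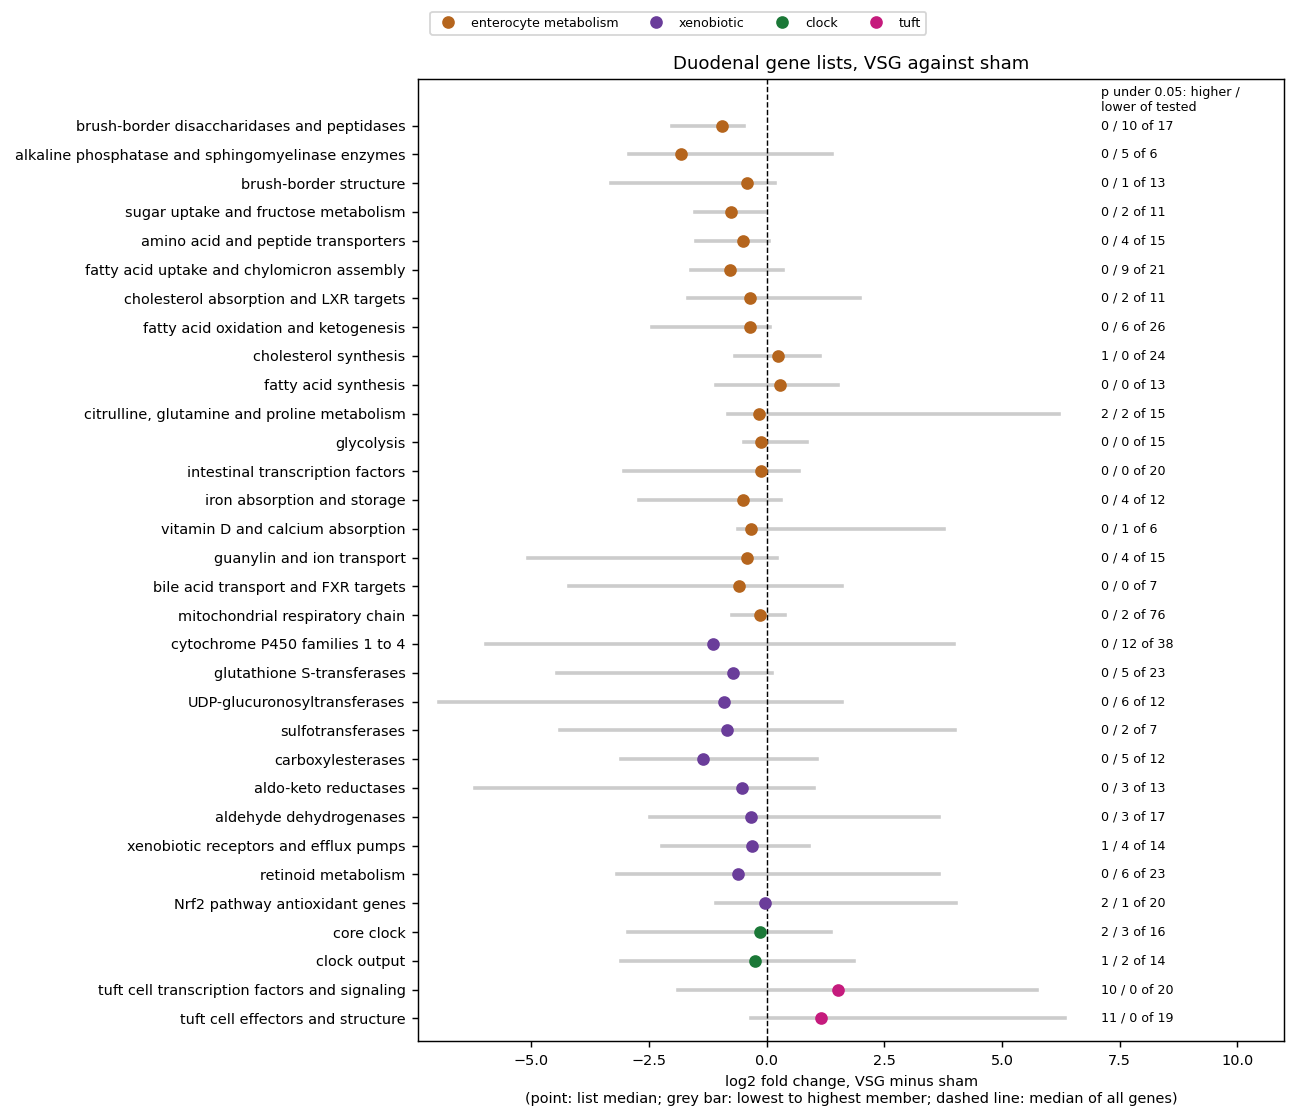
Each row is a gene list, with the median log2 fold change of its tested members (point) and the range from the lowest to the highest member (grey bar), and the numbers at the right count members with a limma p under 0.05. The points of most enterocyte and xenobiotic lists lie left of the dashed median of all genes, at 0.00856, and both tuft lists lie right of it at 1.53 and 1.16.

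All 17 brush-border disaccharidases and peptidases were lower (median −0.95), 10 of them at p under 0.05 (58.8%, against 3.48% of all tested genes). Lct, the lactase that splits milk sugar, had 4778, 21298, 19416 and 8287 normalized counts after VSG and 51613 and 34881 after sham. Treh, the trehalase, had 3168, 3932, 5894 and 3429 after VSG and 13213 and 7489.8 after sham. Mme, the peptidase neprilysin, had 4935, 11760.0, 13932 and 10114 after VSG and 32922 and 20912 after sham. In each of the 3 genes every VSG library was below both sham libraries, and VSG replicate 1 was the lowest. The log2 fold changes were −1.91 ± 0.55, −1.32 ± 0.32 and −1.46 ± 0.40. Ggt1, which cleaves glutathione outside the cell, and Ace, the angiotensin-converting enzyme, had log2 fold changes of −1.44 ± 0.34 and −1.34 ± 0.39, also without overlap. Sis, the sucrase-isomaltase and the usual enterocyte marker, was 39932 to 138293 after VSG and 158522 and 108434 after sham, and here the groups overlapped (log2 fold change −0.58 ± 0.47, exact permutation p = 0.467).

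The phosphatases and sphingolipid enzymes had the lowest median of the enterocyte lists, at −1.83. Of 6 genes 5 were lower at p under 0.05 (83.3%, against 3.48% of all tested genes). Besides Akp3 these were Alpi, the main intestinal alkaline phosphatase, with 22048, 23623, 40213 and 30455 normalized counts after VSG and 76945 and 68658 after sham. Enpp7, which digests dietary sphingomyelin, had 86.5, 158, 297 and 146 after VSG and 2320.0 and 611 after sham. The sham libraries were above every VSG library in both, although the pair differed widely from each other for Enpp7. Enpp3, an ectonucleotidase, and Asah2, which splits ceramide, had log2 fold changes of −2.27 ± 0.52 and −1.38 ± 0.46. The remaining gene, Alpl, the alkaline phosphatase of other tissues, chosen after its values were seen, was near the floor at 12.1 to 72.7 after VSG and at 0 and 81.1 after sham.

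Transporters for sugars and amino acids were lower with smaller differences. All 11 sugar uptake and fructose genes were lower (median −0.76), but 2 reached p under 0.05 (18.2%, against 3.48% of all tested genes). Slc2a5, the fructose transporter, had 2277, 2874, 3253 and 3532 normalized counts after VSG and 9721 and 5341 after sham, without overlap (log2 fold change −1.29 ± 0.30). Pck1, a gluconeogenic enzyme, had 1437, 6311, 4308 and 4249 after VSG and 18370.4 and 5854 after sham, so VSG replicate 2 was above sham replicate 2. The glucose transporters Slc5a1 and Slc2a2 overlapped between groups, with log2 fold changes of −0.76 ± 0.47 and −0.98 ± 0.44. Of 15 amino acid and peptide transporters 14 were lower and 4 reached p under 0.05 (26.7%, against 3.48% of all tested genes). Slc6a19, the main neutral amino acid transporter, had 3532, 2407, 3889 and 4269 after VSG and 10856 and 8863 after sham. Slc6a20a, which carries proline, had 3239.9, 3717, 5142 and 4595 after VSG and 13154 and 9925 after sham. Both were without overlap and near the call (log2 fold change −1.51 ± 0.28 and −1.48 ± 0.26, limma adjusted p = 0.292 for both). Slc15a1, the peptide transporter, and Slc7a7, which exports cationic amino acids at the basal side, were also without overlap, at −1.42 ± 0.45 and −0.73 ± 0.28.

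**Figure D2:**
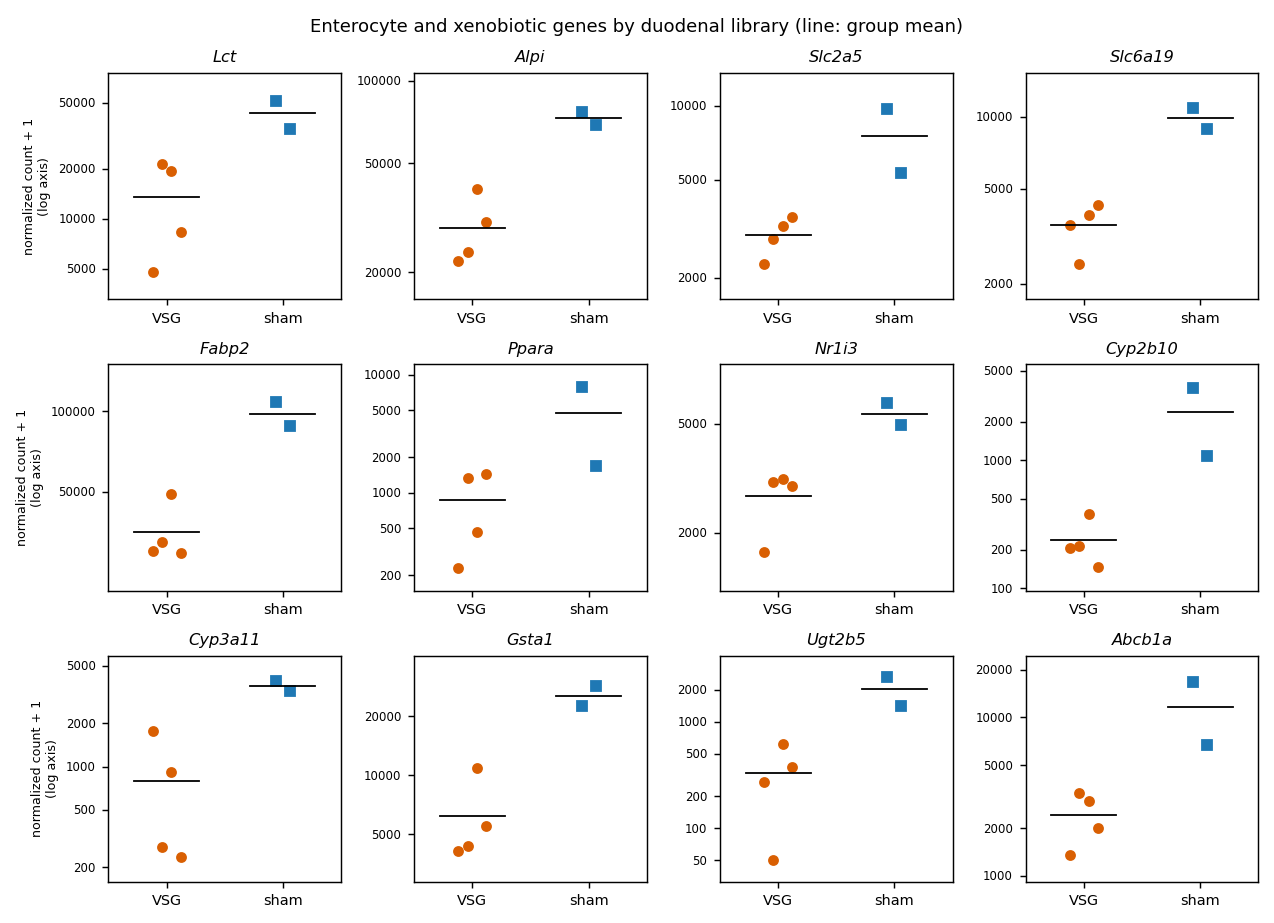
Normalized counts + 1 on log axes for 12 genes in the 4 VSG (circles) and 2 sham (squares) duodenal libraries, with a line at each group mean. In all 12 genes both sham libraries are above every VSG library, closely for Ppara (1674 against 1440.4) and widely for Cyp2b10 (1079.8 against 378). The genes were picked for display. Of the tested enterocyte and xenobiotic genes 25.7% and 40.3% were lower without overlap, against 8.01% of all tested genes.

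Genes of fat absorption were lower in 19 of 21 cases (median −0.77). Of the 21, 9 were lower at p under 0.05 (42.9%) and 13 without overlap (61.9%), against 3.48% and 8.01% of all tested genes. Fabp2, the intestinal fatty acid binding protein, had 29889.7, 32498, 48847 and 29584 normalized counts after VSG and 108029 and 87993 after sham. Fabp1, its liver-type relative, had 75064, 51033, 78233 and 53651 after VSG and 128681 and 109920.4 after sham. The 2 genes showed the same order of groups, with log2 fold changes of −1.50 ± 0.27 and −0.91 ± 0.27. Apoa4, an apolipoprotein of chylomicrons, had 46959.6, 78909, 93539 and 31652 after VSG and 195722 and 117097 after sham. Apoc2, the activator of lipoprotein lipase, the fatty acid translocase Cd36 and the fatty acid transport protein Slc27a4 were without overlap, at −1.61 ± 0.40, −1.34 ± 0.39 and −0.98 ± 0.29. Abcg8, a subunit of the pump that returns sterols to the lumen, was 2549 to 7750.4 after VSG and 12848 and 8419 after sham.

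Fatty acid oxidation and ketogenesis genes were lower in 25 of 26 cases with a median of −0.36. Of the 26, 6 reached p under 0.05 (23.1%, against 3.48% of all tested genes). Ppara, the nuclear receptor that turns these genes on, had 229, 1343, 464 and 1440.4 normalized counts after VSG and 7862 and 1674 after sham. Its sham libraries differed widely from each other, and sham replicate 2 was just above the highest VSG library. Among its known targets, Cyp4a10, an omega-hydroxylase, had 1287, 108, 407 and 321 after VSG and 1819 and 1587 after sham. Ehhadh and Acaa2, enzymes of beta-oxidation, had log2 fold changes of −0.62 ± 0.20 and −0.70 ± 0.24. Ehhadh varied little, at 5334 to 5582 after VSG against 8476 and 8423.

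The other absorptive groups were mixed. Of 12 iron genes 10 were lower and 4 reached p under 0.05 (33.3%, against 3.48% of all tested genes). Slc40a1, the iron exporter ferroportin, had 444, 2574, 6128 and 3529.6 normalized counts after VSG and 20383 and 10557 after sham. Slc11a2, the iron importer, was 4485 to 8213 after VSG and 19045 and 8546 after sham, and Fth1, ferritin heavy chain, was 89829.5 to 149483 after VSG and 166402 and 192670.0 after sham. All 3 were without overlap. Guca2b, the hormone uroguanylin, and Slc9a3r1, a scaffold for brush-border exchangers, were at −1.08 ± 0.37 and −0.80 ± 0.30. Of 76 respiratory chain genes 60 were lower, but the median was −0.14 and 2 reached p under 0.05 (2.63%, against 3.48% of all tested genes). Cholesterol synthesis genes were higher in 19 of 24 cases (median 0.25). Only 1 was at p under 0.05, which at 4.17% is near the 2.79% of all tested genes. That gene was Lss, which makes lanosterol, with 3007, 1235, 1983 and 1189 after VSG and 743 and 833 after sham. No glycolysis gene of 15, no fatty acid synthesis gene of 13 and no intestinal transcription factor of 20 reached p under 0.05. The regulators of enterocyte fate Hnf4a and Hnf4g had log2 fold changes of 0.34 ± 0.24 and −0.46 ± 0.25, and Cdx2, a regulator of intestinal identity, had −0.11 ± 0.20.

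Genes of xenobiotic metabolism, the oxidation, conjugation and export of foreign compounds, were also mostly lower after VSG. Of 261 genes in 10 lists 176 were above the filter, and 136 of these were lower and 40 higher (median −0.70). At p under 0.05, 45 were lower (25.6%) and 3 higher (1.7%), and 71 were lower without overlap (40.3%). The count of 45 was 24 without sham replicate 1 and 32 with a replicate block. Members of these families are close copies of each other, and how reads shared between copies were divided affects single members, the group Ugt1a most, whose genes share exons.

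Of the receptors that switch these enzymes on, Nr1i3, the constitutive androstane receptor CAR, had 1707, 3056, 3153 and 2973 normalized counts after VSG and 5927 and 4929 after sham, without overlap (log2 fold change −1.03 ± 0.31). Nr1i2, the pregnane X receptor PXR, had 5548, 5493, 6714 and 6329 after VSG and 5986 and 5274 after sham. Ahr, the aryl hydrocarbon receptor, had 1262, 1222, 777 and 615 after VSG and 969 and 1294 after sham. For Nr1i2 and Ahr the groups overlapped, and the log2 fold changes were 0.09 ± 0.21 and −0.27 ± 0.43. Cyp1a1, the best known Ahr target, was listed at 0 in all 6 libraries, and Tiparp, another, was higher in every VSG library (1358 to 3007 against 1316 and 927).

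Of 80 cytochrome P450 genes of families 1 to 4, 38 were above the filter, 30 of them lower (median −1.15). At p under 0.05, 12 were lower (31.6%, against 3.48% of all tested genes) and none higher. Cyp2b10, the classical CAR target, had 203, 214, 378 and 145 normalized counts after VSG and 3669 and 1079.8 after sham. Cyp3a11, the classical PXR target and a main drug-oxidizing enzyme, had 1754, 278, 917 and 237 after VSG and 3917 and 3329.9 after sham. The sham mean was 10.1 times the VSG mean for Cyp2b10 and 4.55 times for Cyp3a11 (log2 fold change −3.17 ± 0.67 and −2.66 ± 0.76). Cyp2j6, of a family of fatty acid epoxygenases, had 3679, 3215, 4836 and 4805 after VSG and 9614 and 10001 after sham, with the sham pair close together. Its log2 fold change of −1.27 ± 0.25 was near the call (limma adjusted p = 0.292). Cyp2d26 and Cyp2c65, members of the drug-metabolizing families 2D and 2C, were at −1.32 ± 0.29 and −1.04 ± 0.25.

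Among the conjugating enzymes, 21 of 23 tested glutathione S-transferases were lower. Of the 23, 12 were lower without overlap (52.2%) and 5 at p under 0.05 (21.7%), against 8.01% and 3.48% of all tested genes. Gsta1 had 4092, 4351, 10864 and 5517 normalized counts after VSG and 22399 and 28389.9 after sham, and Gsta4, which clears lipid peroxidation products, had 1099.5, 1398, 2459 and 808 after VSG and 4873 and 8815 after sham. VSG replicate 3 was the highest VSG library in both and still below both sham libraries. Of 12 tested UDP-glucuronosyltransferases 10 were lower and 6 reached p under 0.05. Ugt2b5 had 272, 48.5, 619 and 378 after VSG and 2650.3 and 1399.7 after sham. Ugt2b38 was listed at 0 in all VSG libraries and had 52.7 and 290.4 after sham. Ugt1a1, which conjugates bilirubin, was at −0.94 ± 0.23. The sulfotransferases passed the filter in 7 of 21 cases, 5 lower and 2 higher. Sult6b2 had 1597, 2462, 4135 and 3548 after VSG and 10349 and 10124 after sham, without overlap, whereas Sult1a1, chosen after its values were seen, had 315, 45.5, 33.8 and 136 after VSG and 31.3 and 0 after sham. The mean log2 level of this list overlapped between groups, with VSG replicate 3 above both sham libraries.

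Carboxylesterases, which hydrolyse ester drugs and lipids, had the lowest median of the xenobiotic lists (−1.34 over 12 of 19 genes, 11 lower). Ces2a had 5151, 4703, 5043 and 2528 normalized counts after VSG and 8567 and 12028 after sham, and Ces2e was at −0.78 ± 0.28. The aldo-keto reductases Akr1c14 and Akr1c19, which reduce steroids and other ketones, had 1239 to 1959.8 and 751 to 2011 after VSG. They had 6014 and 5228, and 5695 and 6030.2, after sham. Neither overlapped (log2 fold change −1.80 ± 0.28 and −2.32 ± 0.43, limma adjusted p = 0.291 and 0.292). Retinoid genes were lower in 19 of 23 cases, 6 at p under 0.05 (26.1%, against 3.48% of all tested genes). Beside Aldh1a1 they held Adh4, a retinol-oxidizing alcohol dehydrogenase with 826, 310.1, 843 and 815 after VSG and 7480.3 and 2227 after sham. Rdh7, a retinol dehydrogenase, and Rbp2, the retinol carrier of enterocytes, were at −1.08 ± 0.29 and −0.83 ± 0.32.

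Among efflux pumps, Abcb1a, the P-glycoprotein that returns drugs to the lumen, had 1353, 3317, 2956 and 2012 normalized counts after VSG and 16657 and 6721 after sham, beside the called Abcc2. Abcc3, a basal pump, overlapped, with 3807 to 8625 after VSG and 7046 and 3674 after sham. The Nrf2 antioxidant genes were split evenly, 10 higher and 10 lower of 20. Gpx2, an epithelial glutathione peroxidase, was higher in every VSG library, with 15686, 14184, 14515 and 19722 against 9784 and 8852. Gsr, which regenerates glutathione, was also higher without overlap (0.70 ± 0.27), and Cat, the catalase of peroxisomes, was lower without overlap (−0.67 ± 0.24).

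**Figure D3:**
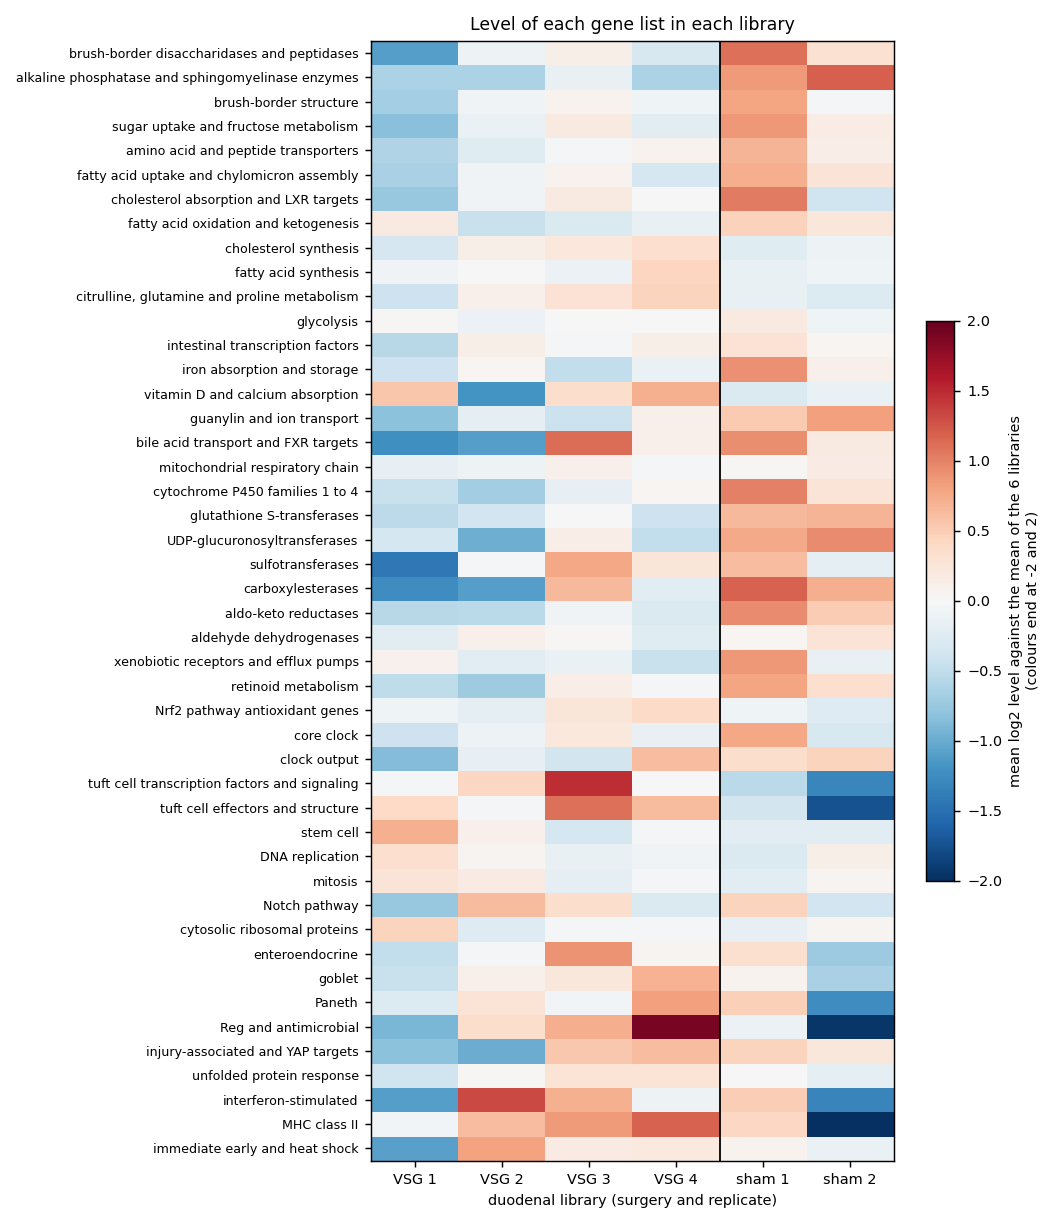
Colour gives the mean log2 level of each list's tested members in each duodenal library, relative to the mean of the 6 libraries. Brush-border and sugar lists are highest in sham replicate 1 and lowest in VSG replicate 1, tuft lists are lowest in sham replicate 2, and the tuft transcription factor and signaling list is highest in VSG replicate 3.

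By library, the mean log2 level over the enterocyte genes, relative to all 6 libraries, was −0.40, −0.14, 0.04 and 0.01 after VSG and 0.36 and 0.13 after sham. Over the xenobiotic genes it was −0.48, −0.48, 0.06 and −0.12 after VSG and 0.68 and 0.33 after sham. Sham replicate 1 was highest and VSG replicate 1 lowest in both, and the sham libraries were above all VSG libraries. Markers of other cell types were measured beside these classes. Stromal, endothelial, muscle and glial markers, 15 genes with Sox10 at 0 in all 6 libraries, summed to 193 to 908 normalized counts after VSG and to 749 and 3073 after sham. Stomach and Brunner gland markers, 10 genes with Atp4b and Muc5ac at 0 in all 6 libraries, summed to 145 to 2509 after VSG and to 488 and 3916 after sham. Both sums were highest in sham replicate 2 and lay within the VSG range in sham replicate 1. By mean log2 level the stromal list was 0.08, −2.31, −0.55 and −0.71 after VSG and 0.52 and 2.98 after sham. By that measure both sham libraries were above every VSG library, as for the enterocyte and xenobiotic genes. The stomach list was −2.29, −0.21, −2.09 and 1.32 after VSG and −0.62 and 3.89 after sham, with overlap. The 14 pancreas acinar markers, with Prss1 at 0, summed to 1225 to 13483 after VSG and to 1737 and 1799.7 after sham. Their part in the results was not tested.

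The circadian clock is a loop in which Clock and Arntl (also called Bmal1) drive the Per, Cry and Nr1d genes through E-boxes, the Per and Cry proteins shut this down, and Nr1d1 and Nr1d2 repress Arntl in turn. Dbp and Tef are output factors that act through D-boxes. Arntl and the Dbp, Per3 and Nr1d group normally peak at opposite times of day. The clock genes did not share a direction. Of 30 genes in 2 lists, all above the filter, 11 were higher and 19 lower (median −0.16), with 3 higher and 5 lower at p under 0.05. The total of 8 was 5 without VSG replicate 2, VSG replicate 3, sham replicate 1 or sham replicate 2, 3 by limma without a trend and 2 with a replicate block. The median was 0.07 without sham replicate 1.

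Promoters of 4 clock genes are shown because their loop members went to opposite sides. The 250 bases before a RefSeq start (GRCm38.p6) are given 5′ to 3′ on the gene's strand, and capitals mark motif matches on either strand. The motifs were the E-box CACGTG, the D-box TTATGTAA and the nuclear receptor half-site AGGTCA, which 6.02%, 0.819% and 14% of 32851 such windows held.
Per1: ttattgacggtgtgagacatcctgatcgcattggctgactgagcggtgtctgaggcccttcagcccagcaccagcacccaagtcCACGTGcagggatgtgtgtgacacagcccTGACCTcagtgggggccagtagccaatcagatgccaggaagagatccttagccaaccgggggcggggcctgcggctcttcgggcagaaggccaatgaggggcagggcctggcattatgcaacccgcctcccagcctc
Per3: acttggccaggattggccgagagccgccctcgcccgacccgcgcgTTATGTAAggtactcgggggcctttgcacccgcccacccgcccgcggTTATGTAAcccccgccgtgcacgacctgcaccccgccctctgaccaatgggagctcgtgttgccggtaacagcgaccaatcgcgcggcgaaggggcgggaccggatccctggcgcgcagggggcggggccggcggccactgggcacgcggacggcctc
Nr1d2: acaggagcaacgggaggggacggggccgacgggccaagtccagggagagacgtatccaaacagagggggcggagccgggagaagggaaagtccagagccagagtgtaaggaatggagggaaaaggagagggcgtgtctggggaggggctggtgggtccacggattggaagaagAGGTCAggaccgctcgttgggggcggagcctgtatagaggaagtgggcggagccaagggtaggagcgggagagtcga
Dbp: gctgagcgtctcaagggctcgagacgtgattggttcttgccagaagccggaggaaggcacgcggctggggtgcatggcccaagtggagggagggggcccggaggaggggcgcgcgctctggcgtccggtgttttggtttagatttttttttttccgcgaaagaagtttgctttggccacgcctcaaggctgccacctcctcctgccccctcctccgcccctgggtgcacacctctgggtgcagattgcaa
These lie at chr11:69098699-69098948 (plus strand, the first of 2 Per1 starts), chr4:151044666-151044915 (minus strand), chr14:18239107-18239356 (minus strand) and chr7:45704997-45705246 (plus strand). The Per1 window held an E-box 166 bases before the start and a half-site on the opposite strand at 137, and the window of the second Per1 start held none. The Per3 window held 2 D-boxes, 205 and 158 bases before the start, the Nr1d2 window held a half-site at 77, and the Dbp window held none of the 3. The windows of Arntl held none, both Tef windows held 1 E-box and the Ciart window held 3. A match is a run of letters and not a measured binding site, and sequence outside these windows was not searched.

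Arntl, of the activating arm, and Per1, of the repressing arm, were higher after VSG. Arntl had 1754, 1823, 2242 and 1684 normalized counts after VSG and 945 and 1115 after sham. Per1 had 4227, 4009, 3103 and 3337 after VSG and 2596 and 1915 after sham. Neither overlapped, and the log2 fold changes were 0.86 ± 0.30 and 0.71 ± 0.26 (exact permutation p = 0.0667 for both). Clock, the partner of Arntl, and Cry1 overlapped, with log2 fold changes of −0.19 ± 0.27 and −0.22 ± 0.82.

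Dbp, whose window is printed above without a match, had the smallest p of the clock genes, with 302, 266, 658 and 369 normalized counts after VSG and 4221 and 2414 after sham. The sham mean was 8.32 times the VSG mean (log2 fold change −3.09 ± 0.50, limma adjusted p = 0.291), and without any 1 library the log2 fold change lay between −3.49 and −2.69. Per3, with the D-boxes, had 504, 480.2, 407 and 442 after VSG and 859 and 1006 after sham. Nr1d2 had 935, 1762, 1706 and 2278 after VSG and 3143 and 3639 after sham. Both were without overlap and lower (log2 fold change −1.02 ± 0.45 and −1.09 ± 0.37, exact permutation p = 0.0667 for both).

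Per2 had 637, 723, 512 and 475 normalized counts after VSG and 23775 and 835 after sham. The VSG libraries were all below the sham libraries, but sham replicate 1 alone gave the size, and the log2 fold change of −2.94 ± 1.03 was −0.53 without it. Nr1d1 had 753, 4076, 4557 and 4039 after VSG and 7634 and 3248 after sham, and Tef had 626, 5138, 315 and 1763 after VSG and 6840.3 and 835 after sham. The groups overlapped in both, and VSG libraries differed among themselves by more than the groups did. Ciart, a repressor of Clock and Arntl, was 0 to 117 after VSG and 72 and 250.1 after sham. Fkbp5, a glucocorticoid-induced chaperone in the output list, had 879, 2915, 1637 and 5553 after VSG and 617 and 594 after sham, without overlap (1.86 ± 0.63, exact permutation p = 0.133). Sgk1, another glucocorticoid-induced gene, was on the other side, at −0.65 ± 0.28.

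The jejunal libraries of the same 6 mice, normalized separately, are set beside these values without a test. Arntl there had 1459, 1018, 1224 and 1096 normalized counts after VSG and 324 and 494 after sham, and Per1 had 2615, 1485, 4259 and 1808 after VSG and 1492 and 959.5 after sham. Dbp had 131, 1263, 869 and 810.1 after VSG and 6602 and 2142 after sham, and Per3 had 57.6, 382, 238 and 237 after VSG and 987 and 938 after sham. Arntl, Dbp and Per3 were without overlap in the same direction in both segments, while Per1 overlapped in the jejunum. Nr1d2 had 419, 1703, 2432 and 1504 after VSG and 3641 and 1772 after sham in the jejunum, with overlap. Per2 was 337 to 4748 after VSG and 1591 and 994 after sham there, so the high duodenal value of sham replicate 1 was not seen in that mouse's jejunum. The time of day at which each mouse was killed is not given in the sources used here.

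**Figure D4:**
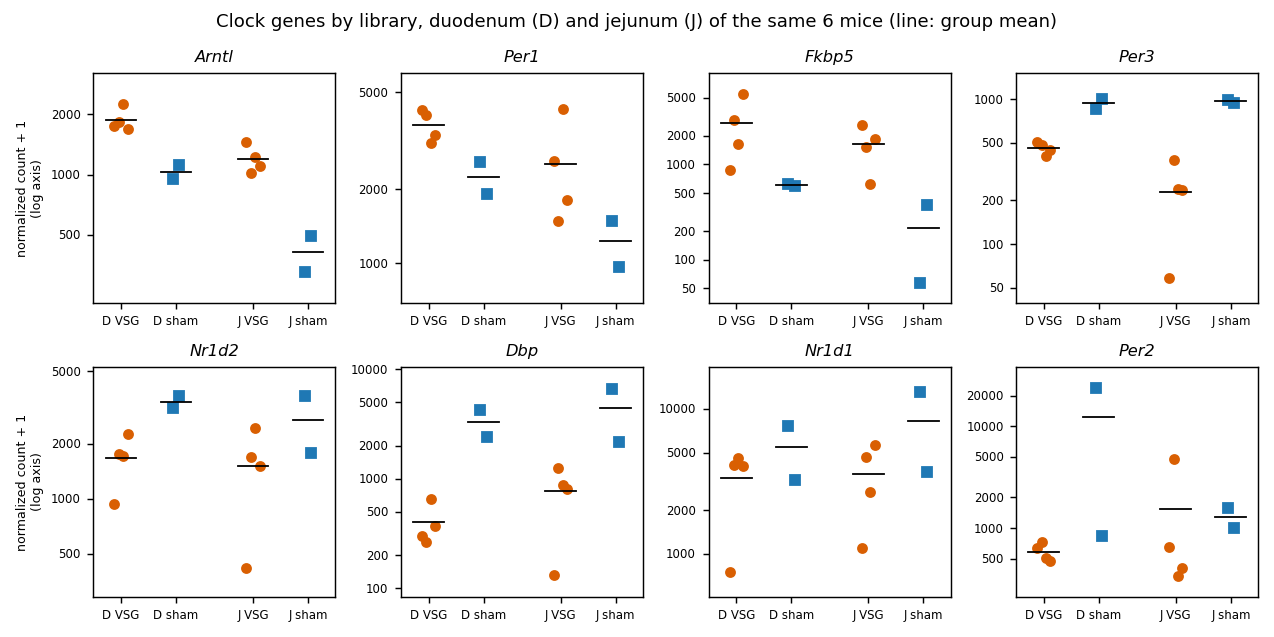
Normalized counts + 1 on log axes for 8 clock genes in duodenum (D) and jejunum (J) of the same mice, with VSG libraries as circles, sham libraries as squares and a line at each group mean. Arntl is higher in all VSG libraries of both segments and Dbp and Per3 are lower in all, while the duodenal Per2 mean after sham rests on 1 library at 23775.

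Tuft cell genes were higher after VSG. Of 42 genes in 2 lists 39 were above the filter, 34 higher and 5 lower, with a median log2 fold change of 1.31 that was 0.73 without sham replicate 2 and up to 1.72 without another library. The medians of the signaling and effector lists, 1.53 and 1.16, were 0.94 and 0.59 without sham replicate 2. At p under 0.05, 21 were higher (53.8%) and none lower, and 19 were higher without overlap (48.7%). The count of 21 was 12 without VSG replicate 1, 11 without VSG replicate 3 and 6 without sham replicate 2, the library lowest for these genes. It was 13 by limma without a trend and 7 with a replicate block. The mean log2 level over the tested genes was 0.17, 0.20, 1.29 and 0.31 after VSG and −0.46 and −1.52 after sham.

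The transcription factor Pou2f3, which specifies tuft cells, had 2867, 1094, 1794 and 1192 normalized counts after VSG and 706 and 737 after sham. Trpm5, the channel at the end of the taste pathway, had 8034, 4506, 8880.3 and 6961 after VSG and 2605 and 1342 after sham. Rgs13, a brake on G protein signaling, had 2989.8, 2804, 4364 and 3157 after VSG and 1325 and 996 after sham. None of the 3 overlapped, with log2 fold changes of 1.16 ± 0.44, 1.88 ± 0.35 and 1.51 ± 0.29, and Trpm5 and Rgs13 were near the call (limma adjusted p = 0.292 for both). The kinase Matk and the exchange factor Vav1, which signal below surface receptors, were also apart, at 2.72 ± 0.71 and 2.14 ± 0.63, but at 1.39 and 0.98 without sham replicate 2. Sox9, shared by tuft, Paneth and stem cells, overlapped (0.43 ± 0.27). Ptpn6, a phosphatase of tuft and blood cells, had 1663, 1493, 6913 and 2620.5 after VSG and 1786 and 7221 after sham, with overlap and a negative log2 fold change of −0.47 ± 0.68.

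Among effectors and structural genes 18 of 19 tested were higher and 11 reached p under 0.05 (57.9%, against 2.79% of all tested genes). Avil, an actin-bundling protein of the tuft, had 5905, 3958, 9433 and 5100.0 normalized counts after VSG and 3002 and 823 after sham. Alox5, which starts leukotriene synthesis, had 2212, 1983, 1465 and 1948 after VSG and 1045 and 383 after sham. Every VSG library was above both sham libraries in each, by 1.88 ± 0.50 and 1.57 ± 0.43 on the log2 scale, which became 0.95 and 0.85 without sham replicate 2. Chat, which makes acetylcholine, had 129.5, 71.8, 25.1 and 168 after VSG and was listed at 0 in both sham libraries. Il25, the cytokine that alerts type 2 lymphoid cells, was 46.4 and 77.9 in VSG replicates 3 and 4 and listed at 0 in the other 4 libraries. Dclk1, the usual tuft marker, had 7695, 2866, 6784 and 5272 after VSG and 3698 and 1109 after sham, so VSG replicate 2 lay between the sham libraries (1.39 ± 0.51, and 0.52 without sham replicate 2). The abundant Kctd12 and Krt18, a receptor-associated protein and a keratin, were at 0.92 ± 0.27 and 0.65 ± 0.22, without overlap.

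**Figure D5:**
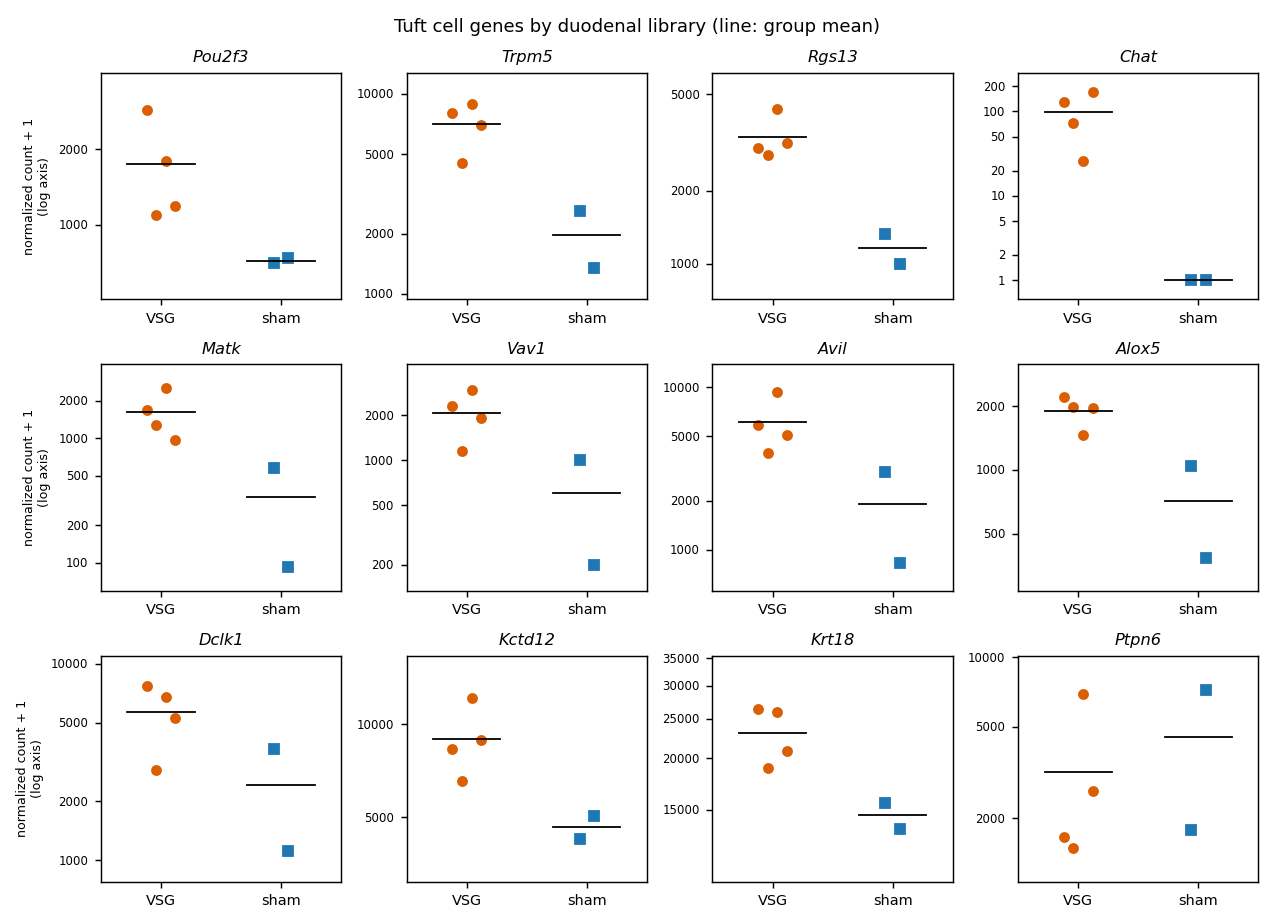
Normalized counts + 1 on log axes for 12 tuft cell genes in the 4 VSG (circles) and 2 sham (squares) duodenal libraries, with a line at each group mean. All VSG libraries are above both sham libraries in 10 of the genes. Dclk1 overlaps through VSG replicate 2 at 2866, and Ptpn6 overlaps with its highest value, 7221, in sham replicate 2. The genes were picked for display. Of the 39 tested tuft genes 48.7% were higher without overlap, against 6.44% of all tested genes.

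Vav1, Ptpn6 and Alox5 are also expressed by blood cells, which the CD45 presort was meant to remove. The 18 immune markers summed to 558 to 2941 normalized counts after VSG and to 445 and 355 after sham. These sums were lowest in the sham libraries, and 6 defining markers (Cd3e, Cd8a, Cd79a, Ighm, Tyrobp and Nkg7) were at 0 in all 6 libraries. By mean log2 level the immune list was 0.47, −1.11, 1.38 and −0.0975 after VSG and −1.0026 and 0.36 after sham, with overlap. By that measure sham replicate 2, the lowest library for the tuft genes, was above VSG replicates 2 and 4. The tuft signaling list alone summed to 33547 to 60225 after VSG and 22488 and 24711 after sham. Trpm5, Rgs13, Avil and Chat are not on the immune list, but these 18 chosen markers cannot show whether blood cells express them. The part of immune RNA in the tuft values was not tested.

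In the jejunum of these mice 37 of 39 tested tuft genes were higher, with a median of 2.52 and 16 at p under 0.05, against 3.63% of all 15857 jejunal genes tested. The jejunal enterocyte genes had 224 of 316 lower (median −0.33) and the xenobiotic genes 119 of 155 lower (median −0.75), with 34 and 40 lower at p under 0.05, against 2.4% of all. The jejunal median over all genes was 0.112. Jejunal sham replicate 1 stood apart from the other libraries for the tuft genes. Their mean log2 level there was 1.18, 1.68, 0.68 and −0.08 after VSG and −3.82 and 0.35 after sham, so sham replicate 2 lay within the VSG range. The enterocyte genes were at −0.18, 0.07, −0.23 and −0.01 after VSG and 0.35 and 0.0036 after sham, again with overlap, and the xenobiotic genes at −0.95, −0.20, 0.06 and 0.01 after VSG and 0.72 and 0.37 after sham, without overlap. Jejunal sham replicate 1 was also the lowest library for the stem and cycling genes, at −1.43, and for the Paneth genes, at −3.35. The mice are shared, so the jejunum is not an independent sample of the surgery.

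The other secretory and immune-related lists were mixed. Goblet genes were higher in 14 of 16 cases (median 0.53, and 0.17 without sham replicate 2), and 2 reached p under 0.05. Agr2, which folds mucins, had 8829.7, 10194, 13685 and 15154 normalized counts after VSG and 7871 and 4112 after sham, and Spdef, which matures goblet cells, had 1048, 1462, 1205 and 1261 after VSG and 647 and 349 after sham. Both were without overlap. Of 29 enteroendocrine genes 21 were higher (median 0.21, and −0.25 without sham replicate 2), with only Nkx2-2, a regulator of hormone cells, at p under 0.05 (313, 1482, 719 and 417 after VSG, 96.7 and 99.7 after sham). The 11 tested Paneth genes had a median of 0.08 (−0.38 without sham replicate 2), with 1 at p under 0.05. The shares higher at this level were 12.5% of goblet, 3.45% of enteroendocrine and 9.09% of Paneth genes, against 2.79% of all tested genes.

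The Reg family of secreted lectins split. Reg3g, which kills gram-positive bacteria, had 20503, 41692, 53930.4 and 108677 normalized counts after VSG and 11767 and 2500.4 after sham. Reg1 had 20554, 23939.5, 53697 and 31634 after VSG and 59942 and 72721 after sham, and Reg3a had 1056, 1305, 3013 and 1219 after VSG and 6124 and 4189.6 after sham. So Reg3g was above and Reg1 and Reg3a were below the sham libraries in every VSG library. Reg3b, the close relative of Reg3g, overlapped, with 76974 in VSG replicate 1 and 92688 in sham replicate 1. Duox2, which makes hydrogen peroxide at the surface, was higher without overlap (532 to 1439 against 229 and 494). All 7 MHC class II genes were higher (median 1.77), but sham replicate 2 was low. Of the 7, 4 reached p under 0.05 (57.1%, against 2.79% of all tested genes). Cd74, their chaperone, had 19780.2, 37682, 42907 and 57129.6 after VSG and 30136 and 1765 after sham. The median of this list was 0.28 without sham replicate 2 and 3.17 without sham replicate 1. Of 24 genes of the unfolded protein response, 17 were higher and 3 reached p under 0.05 (12.5%, against 2.79% of all tested genes). The stress kinase Eif2ak3, the foldase Pdia6 and the degradation factor Edem1 were without overlap, at 1.17 ± 0.46, 0.78 ± 0.21 and 0.82 ± 0.24.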

How the data were processed

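RNA-Seq of GFP-positive duodenal cells of 4 VSG and 2 sham mice was analysed, with the jejunal libraries of the same mice beside it. Reads were mapped by the authors to mm10 (STAR 2.5.3a) and quantified with Salmon 0.6.0. The authors' deposited signal values are DESeq2-normalized counts per gene, scaled separately for each segment. Most could not be turned back into whole reads, and a count model was therefore not used. The authors' deposited fold changes and p-values of VSG against sham were not used.

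Values were tested as log2(normalized count + 1) by limma (3.58.1, in R 4.3.3) with a variance trend and no covariate, over genes with a mean above 10, with Benjamini-Hochberg adjustment over all 16867. An adjusted p of 0.196, for example, is over all of them. The test was run on simulated data first. A ± is the SE of a log2 fold change. Exact permutation tests were two-sided. Replicates are separate mice. Same-numbered VSG and sham libraries come from different mice, and their deviations were not correlated (−0.05 and −0.03). The replicate block therefore has no basis in the design. VSG replicates 3 and 4, which have no same-numbered sham library, do not enter its estimate.

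The members and the 50 gene lists were chosen with earlier results of these data known. A list is described by counts and its median beside all genes tested, with no test of the list. Of 1050 list symbols 2 were not found. Positions are from GENCODE M21, which matched 48058 of 48440 identifiers, and promoters of 7 clock genes are from RefSeq. Genes named are those called, in each list up to 3 of the highest mean and up to 5 of the smallest p under 0.05, over all genes up to 10 higher and 10 lower of the smallest p with a mean above 50 and no overlap, and fixed members. Some of these are not reported here. Any other gene is marked in the text as chosen from its values. The settings varied were pseudocounts of 0.5 and 10, no filter and a mean above 50, equal totals, quantile normalization, limma without trend, a replicate block, an adjusted p under 0.05 and leaving out each library. Counts of class members under these alternatives were chosen after seeing the data. Tables and figures used Python 3.11.15, numpy 2.4.6, pandas 2.3.3 and matplotlib 3.10.9. Depth is known only as implied by taking the most frequent positive value of a library as 1 read. A read count below 3 is not distinct from none.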

Additional observations from a re-analysis of the deposited data

Results flagged for a closer look

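A library was taken to stand apart from its group of 4 where its gap to the nearest other, over the group's range, passed Dixon's critical value, which chance gives in about 1 of 20 groups. Among 126 genes and 58 lists or classes, 12 had such a library among the VSG duodena. That number is not far from what a rate of 1 of 20 gives over so many groups, so some or all of the 12 may be chance.

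VSG replicate 1 stood apart for 4 genes. It was high for Alpl at 72.7 normalized counts, and low for Nr1i3 at 1707, Nr1d1 at 753 and Gm14295 at 814. It was also high for the mean log2 level of the stem and cycling genes, at 0.31 relative to the 6 libraries. Nr1i3 remained lower after VSG without that library, as its log2 fold change stayed between −1.16 and −0.82 whichever library was left out.

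VSG replicate 3 was high for Aldh1a1 at 4281, Fabp2 at 48847 and Reg3a at 3013, all of which were lower after VSG. It was high for the alkaline phosphatase and sphingomyelinase list, at a mean log2 level of −0.14, and for the tuft class, at 1.29. VSG replicate 4 was low for Ces2a at 2528, and VSG replicate 2 was low for Adh4 at 310.1. Whether these libraries are apart beyond chance, and what would set them apart, was not tested.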

How the results depend on the processing

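The 4 called genes lie at the threshold. There were 0 called with a pseudocount of 0.5, without a filter, with a mean above 50, with equal totals, with a replicate block and at an adjusted p under 0.05. There were 10 with a pseudocount of 10 (2 higher, 8 lower), which held all 4, and 43 without a trend (31 higher, 12 lower), which held 2. Leaving out 1 library gave 0 to 217. Beside these counts of 0, 1057 genes had an unadjusted limma p under 0.05 in the fit as reported and 710 with a replicate block.

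Genes at an unadjusted p under 0.05 split into 470 higher and 587 lower (44.5% higher), but into 595 and 482 with equal totals (55.2% higher), where the median of all genes was 0.09, and into 808 and 647 without sham replicate 1. Without a trend the counts were 13 tuft genes higher, 23 enterocyte genes lower and 3 clock genes, and with a replicate block 7, 13 and 2. Leaving out 1 library gave 6 to 18 tuft, 16 to 47 enterocyte, 24 to 53 xenobiotic and 5 to 8 clock genes.

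List medians moved by more than the spread between replicates in 23 cases of 650. With a replicate block they were −2.10 for the alkaline phosphatase list, 0.055 for fatty acid synthesis, −0.24 for glycolysis, −0.61 for aldehyde dehydrogenases, −1.12 for retinoid and 0.43 for Reg genes, and with a mean above 50 −2.27 for the alkaline phosphatase list. Leaving out 1 library gave ranges of −1.51 to −0.57 for disaccharidases and peptidases, −2.30 to −1.67 for the alkaline phosphatase list, −1.05 to −0.29 for amino acid transporters, −1.20 to −0.12 for cholesterol absorption and 0.041 to 0.29 for fatty acid synthesis. The ranges were −1.26 to −0.57 for cytochrome P450, −0.71 to −0.49 for glutathione S-transferases, −0.57 to −0.28 for aldehyde dehydrogenases and −0.87 to −0.0061 for receptors and pumps. They were −0.035 to 0.76 for Notch, 0.51 to 3.17 for Reg genes, 0.28 to 3.17 for MHC class II, 0.0041 to 2.28 for immune, −4.15 to −1.59 for stromal and −5.43 to 0.0 for stomach markers. 

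In 10 cases a gene's direction turned, none of them past a threshold. With a replicate block these were Nr1i2 at −0.026 and Ahr at 0.15. Leaving out 1 library gave ranges of −0.031 to 0.33 for Olfm4, −1.79 to 4.57 for Alpl, −0.13 to 0.81 for Abcc3, −0.44 to 0.057 for Clock, −0.64 to 0.17 for Cry1, −2.56 to 0.47 for Tef and −1.48 to 0.54 for Ptpn6. Of 105 named genes at p under 0.05, 23 had a log2 fold change over 1.5 times nearer 0 without 1 library, sham replicate 1 for 13 of them and sham replicate 2 for 10. The cause was not tested. With 2 sham mice, a difference that rests on 1 of them cannot be told apart from that mouse.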

Other observations

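Several of the genes with the smallest p lie outside the lists. Sord, the sorbitol dehydrogenase that makes fructose, had 3956, 4158, 3864 and 3857 normalized counts after VSG and 11966 and 9031 after sham, and the VSG libraries were close together (log2 fold change −1.39 ± 0.22, limma adjusted p = 0.291). Arf4, a small GTPase of Golgi traffic, had 3912, 7037, 7702 and 6618 after VSG and 18561 and 23650.1 after sham. Dmtf1, a transcription factor tied to cell cycle arrest, had 952, 779, 890.1 and 1706 after VSG and 4705 and 4364 after sham. In the jejunum Sord and Arf4 were on the same side (−1.50 ± 0.41 and −1.16 ± 0.31), whereas Dmtf1 was at 1.34 ± 0.86, and the difference between segments was not tested.

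Genes higher after VSG included Rassf4, a Ras-association domain protein, with 2273, 2594, 3508 and 4508 normalized counts after VSG and 723 and 885 after sham. Usp37, a deubiquitinase of dividing cells, had 8267, 7077, 2506 and 4377 after VSG and 1040.2 and 878 after sham, and Ncoa3, a nuclear receptor coactivator, had 2649, 2152, 3602 and 2518 after VSG and 1007 and 677 after sham. Rgp1, a Golgi exchange factor subunit, was at 1.72 ± 0.32. Gm14295 had 814, 1316, 1247 and 1265 after VSG and 124 and 26.7 after sham. Each was above both sham libraries in all 4 VSG libraries, with limma adjusted p of 0.291 to 0.292. In the jejunum Gm14295 had a log2 fold change of −4.55 ± 1.90, Usp37 of −0.06 ± 0.55 and Ncoa3 of −0.46 ± 0.55, set beside these without a test.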
